A study of Aspergillus nidulans with 7 samples.

Results

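The 5 genes described here make or border the glucan synthases of the filamentous fungus Aspergillus nidulans, and were followed by mRNA sequencing through conidiation, the formation of asexual spores. They were picked by identifier from the 10639 genes of the deposited count table: both alpha-1,3-glucan synthase genes, AN3307 (ags1) and AN5885 (ags2), the amylase-like genes AN3308 and AN3309 beside AN3307, and the beta-1,3-glucan synthase gene AN3729, known as fksA. The samples were 7 libraries of wild-type strain FGSC A4, 1 for each time from 0 to 48 h. At 0 h the mycelium came straight from an aerated liquid culture, and at 6, 12, 18, 24, 30 or 48 h it had stood on wet filter paper in air under constant light, while by the labels it formed aerial hyphae, vesicles, metulae, phialides and then chains of conidia. Whole filters were sampled, so hyphae, conidiophores and spores were measured as a mixture, and fewer cells of a kind cannot be told apart from less RNA per cell.

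Alpha-1,3-glucan is a matrix polysaccharide of the fungal cell wall. It is made by large membrane-bound synthases that couple a chain-extending domain to a domain resembling amylases. Beta-1,3-glucan is the main load-bearing glucan of the wall, made at growing tips by a membrane enzyme, and both kinds of synthase draw on UDP-glucose. Amylases and their relatives cut or rearrange alpha-glucans.

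Levels are given as CPM, a gene's counts relative to the library's total after TMM scaling, which sets each library's scale by the bulk of its genes. Where genes are compared with each other, levels are CPM per kb of gene model. Totals ran from 4186063 to 9899347 counts, and 1 count was worth 0.0771 to 0.313 CPM. The TMM factor was 0.459 at 0 h and 0.878 to 1.395 at the later times. With library totals in place of TMM the median fitted change of all genes over 0 to 48 h was 1.35 log2 units, and with upper quartile factors 0.41, against 0.11 under TMM, so changes are to be read against that median. Intervals are exact 95% limits from the counts and cover counting error only, as no time had a replicate.

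A further property of the libraries touched these genes. Genes with long models were low at 18 h: against the mean of 12 and 24 h on the log2 scale, the median gene with a model over 5000 nt stood at -0.71 (127 genes averaging at least 10 CPM), and the median gene of 1500 to 2000 nt at -0.0022 (1352 genes). Long genes were also high at the start: centred on its own mean over the 7 libraries, the median gene over 5000 nt stood at 0.49 log2 units at 0 h, 0.26 at 6 h, 0.24 at 12 h, -0.68 at 18 h, -0.15 at 24 h, -0.17 at 30 h and 0.14 at 48 h. The models of AN3307, AN5885 and AN3729 are 7335, 7164 and 5718 nt long, and those of AN3308 and AN3309 are 1659 and 1731 nt long.

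The slope of each gene on hours asked whether the synthases changed as submerged mycelium gave way to conidiophores. AN5885 rose over 0 to 48 h, and AN3307, AN3308, AN3309 and AN3729 fell, by edgeR's quasi-likelihood test with a Benjamini-Hochberg adjusted p under 0.05. Among all 9703 genes tested 10.6% rose and 12.4% fell, or 23.0% in either direction. The median fitted change was -1.90 log2 units over the 5 genes and 0.11 over all genes. Of the 4 falls, 2 were called with upper quartile factors and 1, that of AN3307, with totals. Leaving out the 0 or 48 h library also left 1, and leaving out 18 or 24 h left 2. Over the air-exposed libraries alone, 6 to 48 h, which is the same test as leaving out 0 h, AN5885 rose and AN3307 fell. In that fit 10.1% of 9691 genes rose and 8.68% fell (18.8% either way).

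AN3307 (contig 53, 91653 to 99189, the genome build not being named in the sources used here) was the more abundant alpha-glucan synthase transcript in every library, by a margin that narrowed with time. In time order it had 4538, 1366, 1131, 457, 619, 713 and 366 CPM, from 2383 counts or more in each library. The submerged culture stood highest, and the air-exposed libraries were not in steady order, with 18 h below both 24 and 30 h. Its fitted fall over 0 to 48 h was -3.18 log2 units ± 0.74 (edgeR adjusted p = 0.016; 7 libraries, SE). The call held when any 1 library was left out (edgeR adjusted p between 0.0219 and 0.0466), but the change was -1.92 once 0 h was left out and -1.72 with totals. An offset for gene length in each library, an alternative chosen after seeing the data, gave -2.68 (edgeR adjusted p = 0.0154). The level at 48 h was 0.0808 of that at 0 h (95% interval 0.0781 to 0.0835), or 0.245 of it with scaling by library totals.

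Much of that distance was already present at 6 h, where AN3307 stood at 0.301 of its 0 h level (0.292 to 0.310), or 0.576 with totals. A further step lay between 12 and 18 h, the 18 h level being 0.405 of the 12 h level (0.385 to 0.425). In the 18 h library AN3307 was 0.87 log2 units under the mean of 12 and 24 h (-0.87), and 34.6% of the 127 genes with long models were lower still on that measure, so long genes in general shared the dip. Over 6 to 48 h, the same test as the fit without 0 h above, the fitted change was -1.68 ± 0.50 (edgeR adjusted p = 0.0466). That call did not pass with upper quartile factors (edgeR adjusted p = 0.0662) or totals (0.156), and of the 6 fits that left out 1 more library it passed in the one without 18 h.

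AN5885 (contig 97, 293102 to 301020) ran the other way from a low start. In time order it had 7.83, 9.79, 36.2, 35.5, 108, 116 and 147 CPM, from 25, 46, 158, 185, 670, 1509 and 1847 counts. On the TMM scale the values formed plateaus at 0 and 6 h, at 12 and 18 h and at 24 and 30 h. Within each of these the fold between libraries was within counting error of 1, and the 48 h value stood above all of them. With totals the folds of the later over the earlier library were 2.39, 1.01 and 1.16, so the first plateau depends on the scaling. Its fitted rise was 4.70 ± 0.90 log2 units (SE, 7 libraries; edgeR adjusted p = 0.00784). It was called under each normalization, filter, tool, time scale and omission run for this fit (edgeR adjusted p from 0.00364 to 0.024 among the omissions).

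The steps of AN5885 lay between 6 and 12 h, where the later level was 3.70-fold the earlier (2.65 to 5.26), and between 18 and 24 h, where it was 3.05-fold (2.58 to 3.60). At 48 h the gene stood 18.7-fold above 0 h (12.7 to 29.0), or 57.0-fold with totals. Against the mean of 12 and 24 h, AN5885 stood at -0.81 log2 units at 18 h, with 39.4% of the long genes lower. Unlike AN3307, it was not below its 12 h level beyond counting error (0.981 of it, 0.789 to 1.22), so that distance lay in the higher 24 h value. The part of the low 18 h values of long genes in its plateau from 12 to 18 h was not tested. Over 6 to 48 h AN5885 rose by 3.57 ± 0.85 log2 units (edgeR adjusted p = 0.024). The call was missed when the 12 h library (edgeR adjusted p = 0.0645) or that of 18 h (0.0601) was dropped. Without 48 h the rise was 5.99, a slope of the earlier libraries scaled to the whole span. brlA, the transcription factor gene that starts conidiophore formation, had 11.5 CPM at 12 h, against 0.64 (3 counts) at 6 h, the interval in which AN5885 made its first step. The courses differed after that: brlA had 67.4 CPM at 18 h, where AN5885 was level with 12 h, and 98.8 at 24 h.

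**Figure D1:**
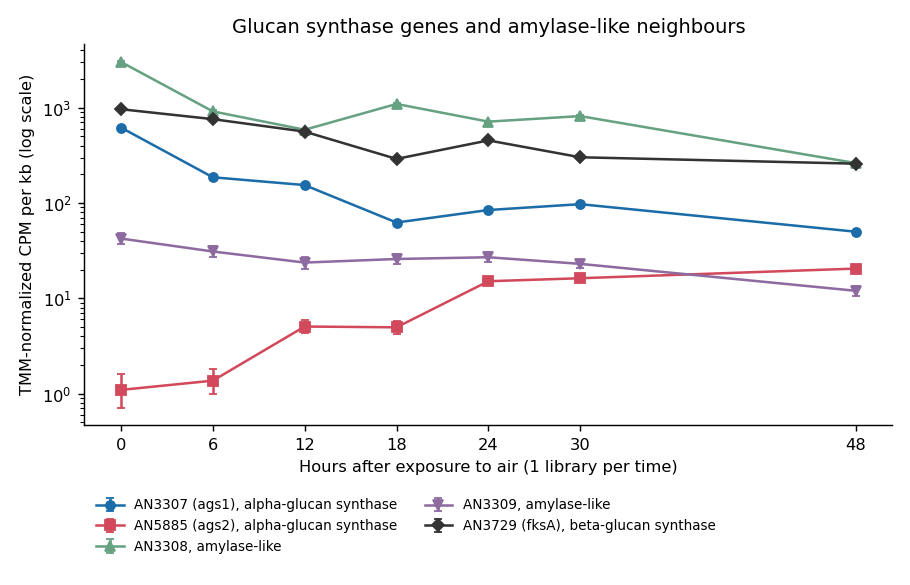
TMM-normalized CPM per kb of gene model (log axis) of the 5 genes against hours after exposure to air, 1 library per time, with exact 95% counting intervals as bars. AN5885 climbs to 20.5 CPM per kb at 48 h and the other 4 genes stand lower at 48 h than at 0 h, but AN3307 stays above AN5885 throughout.

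The relation of the paralogs was read within each library, where it does not depend on how libraries were scaled, and where both gene models have nearly the same length. Of the counts of both synthases, AN5885 held 0.172% at 0 h (25 counts beside 14483; exact 95% interval 0.112 to 0.254%), 0.712% at 6 h, 3.10% at 12 h and 7.20% at 18 h (6.23 to 8.27%). It held 14.9% at 24 h (13.8 to 15.9%), 14.0% at 30 h (13.4 to 14.7%) and 28.6% at 48 h (27.5 to 29.7%). The share was higher at each later time, except at 24 and 30 h, whose intervals overlapped.

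AN3307 nevertheless stayed the larger of the pair. Per kb its level was 566-fold that of AN5885 at 0 h (383 to 875), 136-fold at 6 h, 30.5-fold at 12 h, 12.6-fold at 18 h, 5.59-fold at 24 h, 5.99-fold at 30 h and 2.44-fold at 48 h (2.31 to 2.57). No crossing of the paralogs was seen in these 7 libraries; their levels approached each other from both sides. On the TMM scale the summed level of both synthases was 70.5 CPM per kb at 48 h and 620 CPM per kb at 0 h, so the gain in AN5885 was small beside the loss in AN3307. The handling of reads that match both paralogs is not stated in the material used. At 0 h, where AN3307 was most abundant, AN5885 received 25 counts in all, so at most 0.172% of the pair's reads can have been placed on AN5885 from AN3307 in that library.

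**Figure D2:**
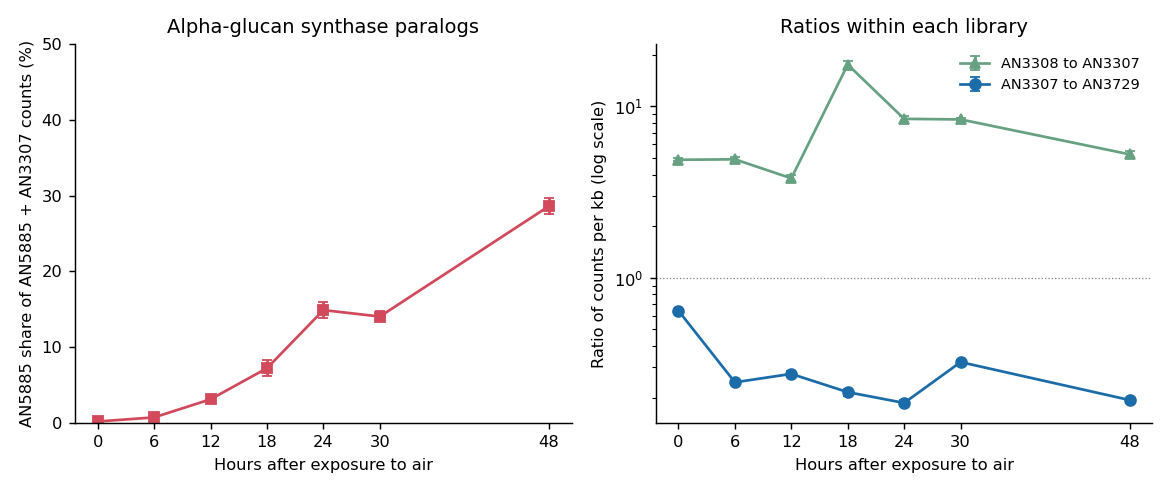
Left: share of AN5885 in the counts of AN5885 plus AN3307 at each time, with exact 95% intervals. Right: ratio of counts per kb (log axis) of AN3308 to AN3307 and of AN3307 to AN3729, with exact 95% limits from the counts. The share is 28.6% at 48 h, its highest value, and the AN3308 to AN3307 ratio peaks at 18 h.

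The amylase-like gene AN3308 (contig 53, 102033 to 103803) begins 2843 bases from the end of AN3307 as the table orders them. In time order it had 5010.4, 1518, 973, 1816, 1184, 1354 and 435 CPM. The submerged culture was again highest and 48 h lowest, with a second high at 18 h. Per kb it was the most abundant of the 5 genes in every library, with 262 CPM per kb at 48 h, where it ranked 417 of 10411 genes with a count, and 3020.1 CPM per kb at 0 h, where it ranked 121. At 12 and 48 h its interval overlapped that of AN3729. Its fitted fall was -2.77 ± 0.74 log2 units (edgeR adjusted p = 0.027), and the call was missed with totals (edgeR adjusted p = 0.165) and on omission of 0, 18, 24 or 48 h (from 0.053 to 0.145), with a change of -1.70 without 0 h.

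AN3308 and AN3307 matched in their distance between 6 and 0 h, AN3308 standing at 0.303 of its 0 h level at 6 h (0.295 to 0.311). They parted at 18 h, where AN3308 was 1.87-fold its 12 h level (1.80 to 1.93). Per kb, AN3308 over AN3307 was 4.88 at 0 h, 4.91 at 6 h and 3.81 at 12 h, then 17.5 at 18 h (16.8 to 18.4), 8.46 at 24 h, 8.40 at 30 h and 5.25 at 48 h. In the 18 h library AN3308 stood 0.76 log2 units above the mean of 12 and 24 h, higher than 98.5% of the genes in its length class. The ratio at 18 h therefore set a high value for a gene of its length over the low value of a long gene. Over 6 to 48 h the fitted change of AN3308 was -1.49 ± 0.65 and not called (edgeR adjusted p = 0.145), and it was -0.0089 once the 48 h library was left out.

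AN3309 (contig 53, 104572 to 106833), the other amylase-like gene, was far scarcer. In time order it had 73.3, 53.6, 41.0, 44.7, 46.7, 39.8 and 20.8 CPM, from 179 to 516 counts. The libraries from 12 to 30 h lay close together and 48 h stood apart below them. The fitted fall was -1.52 ± 0.38 log2 units (edgeR adjusted p = 0.0206). It was not called with upper quartile factors (edgeR adjusted p = 0.0613), with totals (change -0.16; edgeR adjusted p = 0.852), or on omission of 0 h (0.0553) or 48 h (0.177). Per kb, AN3308 was 21.9-fold above AN3309 at 48 h (19.3 to 24.9) and 71.3-fold above it at 0 h (62.7 to 81.5), so these neighbours, 768 bases apart, did not keep a fixed ratio.

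AN3729 (contig 59, 558280 to 564109), the beta-1,3-glucan synthase gene, had 5511, 4338, 3208, 1659, 2594, 1726 and 1479 CPM in time order. Each library stood below the one before it, except that 24 h stood above 18 h. The 18 h value was at -0.80 log2 units against the mean of 12 and 24 h, with 41.7% of the 127 long genes lower. Its fitted fall was -1.90 ± 0.55 log2 units (edgeR adjusted p = 0.037). This call was missed when any 1 library was left out (edgeR adjusted p between 0.0554 and 0.101), with upper quartile factors (0.0507), with totals (change -0.63; 0.341) and with the gene length offset (change -1.51; 0.0516). On totals the level at 6 h was 1.51-fold that at 0 h and with TMM 0.787-fold, so the direction of that first step depends on the scaling.

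Within libraries, AN3729 was above both alpha-glucan synthases at every time. The sum of AN3307 and AN5885 per kb was 0.643 of AN3729 at 0 h, 0.247 at 6 h, 0.284 at 12 h, 0.232 at 18 h, 0.219 at 24 h, 0.376 at 30 h and 0.272 at 48 h. The submerged culture thus held the most alpha-glucan synthase transcript relative to the beta-glucan synthase. AN5885 alone was 0.0793 of AN3729 at 48 h (0.0755 to 0.0832) and 0.00113 of it at 0 h (0.000734 to 0.00168). Among 10411 genes per kb, AN3729 ranked 429 at 48 h and 358 at 0 h, AN3307 ranked 2576 and 495, AN5885 ranked 5251 and 8510, and AN3309 ranked 6611 and 3208 at the same times. Per kb at 48 h the order was AN3308 and AN3729, which overlapped, then AN3307, AN5885 and AN3309.

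Between neighbouring times, 0 of the 30 steps of these genes reached a 4-fold difference where the higher library had 10 CPM or more. Of all 9703 genes, 2.74% were past that size upward and 4.68% downward at 6 h, 1.04% and 0.278% at 12 h, 0.309% and 0.0412% at 18 h, 0.165% and 0.0% at 24 h, 0.237% and 0.433% at 30 h, and 1.19% and 1.56% at 48 h, each against the time before. Scaled by totals, 1 step passed, that of AN5885 between 6 and 12 h (4.39-fold). For 48 h against 0 h, AN5885 was more than 4-fold higher, as were 9.8% of all genes, and AN3307 and AN3308 were more than 4-fold lower, as were 11.6%. With totals AN3308 stood at 0.264 of its 0 h level, short of that size, and AN3307 at 0.245.

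A curve with hours and hours squared passed for all 5 genes (edgeR adjusted p between 0.00103 for AN5885 and 0.0438 for AN3308), as it did for 32.0% of all genes. AN3307 and AN5885 also passed in each omission of a library, whereas the other 3 did not pass in all of them. The bend itself was called by edgeR for 0 of the 5 genes, with an adjusted p of 0.0751 for AN5885 and 0.221 or more for the others.

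Other genes of glucan metabolism were taken from lists by identifier and reference symbol. The list counts are to be read beside all genes tested over 0 to 48 h, of which 10.6% rose and 12.4% fell, with a median change of 0.11 log2 units. In the beta-glucan remodelling list, which holds transferases and glucanases that lengthen, link or trim beta-glucan, 0 of 12 genes rose and 4 fell over 0 to 48 h, with a median change of -1.70 log2 units. btgE (AN1551) had 741 CPM at 48 h, against 7983 at 0 h, a change of -3.23 ± 0.62 (edgeR adjusted p = 0.00737). For sun1 (AN6697), of a family of secreted glucan-modifying proteins, the change was -2.53 ± 0.48 (edgeR adjusted p = 0.00719). bgt2 (AN7950) and bgt3 (AN4700), which bear the name of a beta-1,3-glucanosyltransferase family, changed by -2.52 and -1.49 (edgeR adjusted p of 0.0302 and 0.0402). The bgt2 call was missed in 5 of the 7 omissions of a library, and the bgt3 call in 6 of the 7, with upper quartile factors (edgeR adjusted p = 0.0739), by limma-voom (0.0508) and with the length offset (0.0566); without 0 h the changes were -1.52 and -0.79. gel1 (AN7657), named like the anchored beta-1,3-glucanosyltransferases, stood at 2195 CPM at 48 h, against 14045 at 0 h, and missed the threshold (edgeR adjusted p = 0.0508). The count of 4 was 1 with totals, 2 on omission of 0, 18, 24, 30 or 48 h, 7 by DESeq2 and 8 on a scale of log2(hours + 6).

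In the UDP-glucose supply list 2 of 4 genes fell and 0 rose, beside 12.4% and 10.6% of all genes. ugp1 (AN9148), for the enzyme that makes UDP-glucose, had 458 CPM at 48 h, against 3250.2 at 0 h, a change of -2.76 ± 0.55 (edgeR adjusted p = 0.00899). AN8689, entered on the list as the glucokinase gene glkA, changed by -4.34 ± 0.71 (edgeR adjusted p = 0.00384). Both calls held over 6 to 48 h as well (edgeR adjusted p of 0.0169 and 0.00247), though that of ugp1 was missed there without the 6 h library (-1.47; edgeR adjusted p = 0.0644). pgmA (AN2867), which shares its name with phosphoglucomutase genes, was at 510 CPM at 48 h, against 421 at 0 h (edgeR adjusted p = 0.994), and AN7459, entered as the hexokinase gene hxkA, at 248 CPM, against 215 (0.913).

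On the side of alpha-glucan breakdown, 1 of 2 listed genes rose, beside 10.6% of all genes. AN3790, entered as the alpha-1,3-glucanase gene agnB, had 34.3 CPM at 48 h, against 5.95 at 0 h, a rise of 2.25 ± 0.55 log2 units (edgeR adjusted p = 0.0196) that was missed on omission of 48 h (0.462) and on the log2 time scale (0.0514). AN7349, entered as mutA of the same enzyme class, had 1 to 47 counts per library and was not called (edgeR adjusted p = 0.103). Of 5 starch and maltose genes 1 rose and 0 fell: agdC (AN0941), an alpha-glucosidase gene, had 162 CPM at 48 h, against 23.5 at 0 h, a rise of 3.24 ± 0.53 (edgeR adjusted p = 0.00396). The gene entered as the starch regulator amyR (AN2016) stood at 17.3 CPM, against 22.2 (edgeR adjusted p = 0.636). With totals 2 of the 5 rose.

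Of 4 wall integrity genes 1 fell over 0 to 48 h, beside 12.4% of all genes. It was rlmA (AN2984), for a transcription factor of that pathway (-2.21 ± 0.64, edgeR adjusted p = 0.037). That call was missed with totals, with limma-voom and on omission of 0, 6, 12, 18, 24 or 30 h, and 2 of the 4 fell on the log2 time scale or on omission of 48 h. Totals also ended the calls of sun1 (edgeR adjusted p = 0.0585), bgt2 (0.176) and bgt3 (0.870), and left those of btgE, ugp1 and AN8689. All 4 stage markers of conidiation, brlA, abaA, wetA and rodA, rose over 0 to 48 h. On omission of 48 h the calls of abaA and wetA were missed, that of abaA also on the log2 time scale (edgeR adjusted p = 0.0958), and that of rodA on omission of 0, 12, 24 or 30 h (from 0.0519 to 0.0803).

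**Figure D3:**
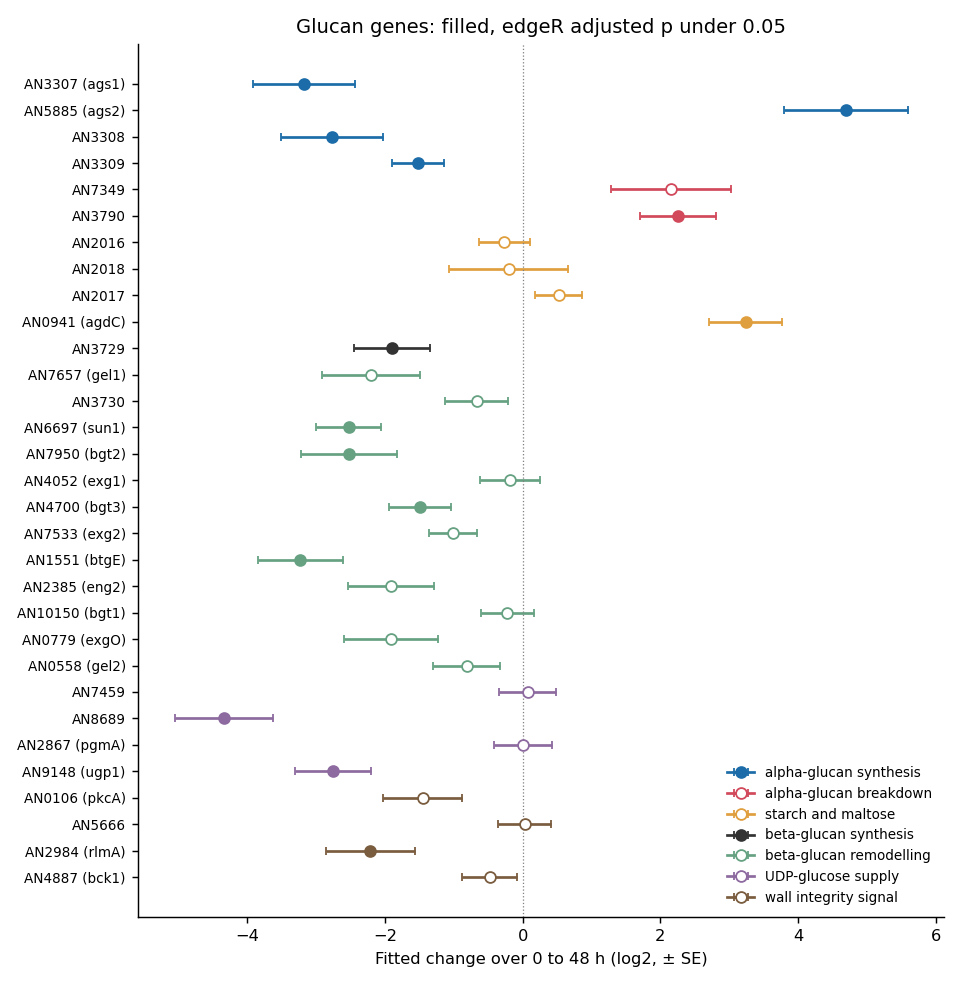
Fitted change over 0 to 48 h (log2, bars ± SE) of the listed glucan and wall integrity genes, coloured by list; filled points have an edgeR adjusted p under 0.05. A gene with no count in the 0 h library and 1 further listed gene are not drawn. AN5885 has the largest rise drawn (4.70), and every filled gene of the beta-glucan lists lies left of 0.

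The genes around the members were examined as the table orders them, 3 on each side. Of 18 neighbours that are not members 3 rose and 1 fell over 0 to 48 h, beside 10.6% and 12.4% of all genes tested. On contig 53 the genes called as falling were AN3307, AN3308, AN3309 and AN3310, which lie side by side. AN3310 had 227 CPM at 48 h, against 934 at 0 h (-1.81 ± 0.54; edgeR adjusted p = 0.0398), a call missed with totals, upper quartile factors and the log2 time scale and in 6 of the 7 omissions of a library. Of the genes farther out, AN3304 and AN3312 rose. AN3304 had 55.5 CPM at 48 h, against 0.31 at 0 h, which was 1 count (edgeR adjusted p = 0.00789). AN3312 had 44.4 CPM, against 4.70 (a change of 3.39 ± 0.38, edgeR adjusted p = 0.00097). AN3305, between AN3304 and AN3306, had 1.67 CPM at 48 h, against 37.3 at 0 h. Its change of -3.49 ± 1.16 was not called (edgeR adjusted p = 0.0585), nor was that of AN3311 (0.628). AN3306, which lies 786 bases from AN3307, had 5 counts at 48 h, 3 at 0 h and no more than 59 in between.

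Of the 6 genes around AN5885, 0 were called by edgeR over 0 to 48 h, with 1 at an unadjusted p under 0.05; limma-voom called 0 and DESeq2 called 1. The nearest, luA (AN5886), 389 bases away, stood at 99.3 CPM at 48 h, against 83.3 at 0 h (edgeR adjusted p = 0.51). AN5887 had 26 counts at 48 h and 0 at 0 h and was not called (edgeR adjusted p = 0.0977). Around AN3729, scw4 (AN3727), named after a cell wall protein of yeast, rose by 4.32 ± 0.75 log2 units (edgeR adjusted p = 0.00497), opposite in sign to AN3729, and lies 3418 bases from it. On omission of 48 h the change was 4.67 and not called (edgeR adjusted p = 0.0564). scw4, which is on none of the lists, had 39.6 CPM at 48 h, against 0.63 at 0 h, from 498 and 2 counts. The other 5 genes around AN3729 were not called.

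**Figure D4:**
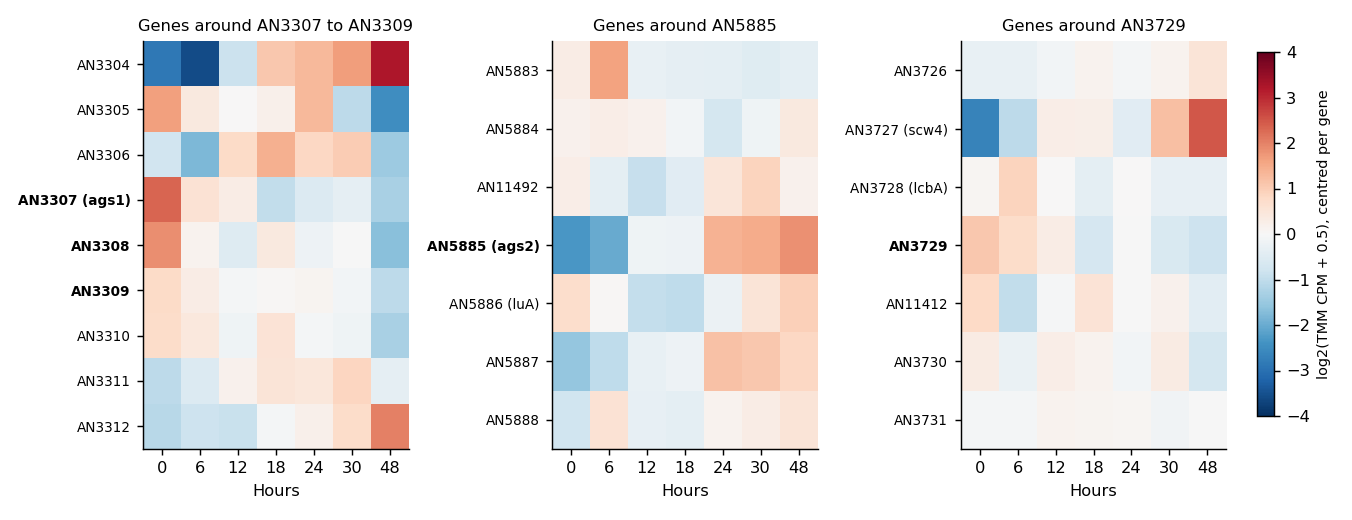
Colour gives log2(TMM CPM + 0.5), centred on each gene's mean over the 7 libraries, for the genes around AN3307 to AN3309, AN5885 and AN3729 (names in bold), in the order of the contig; columns are hours. AN3305 and AN3307 to AN3310 share high values at 0 h and low values at 48 h, whereas AN5885, scw4, AN3304 and AN3312, among others, show the opposite.

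The 3 genes whose centred log2 profile lay closest to each member were sought among 7174 genes averaging at least 10 CPM, by root mean square (RMS) difference over the 7 libraries. For AN3307 they were chsE (AN6318), a chitin synthase gene, AN8044 and AN10914, with RMS differences of 0.23, 0.24 and 0.25 log2 units, where the median gene of the pool lay at 1.18. chsE had 378 CPM at 48 h, against 4371 at 0 h, and its model, like that of AN3307, is long, at 5559 nt. For AN5885 they were AN3226, AN2375 and ugd2 (AN9172), at 0.30, 0.30 and 0.32, with the pool median at 1.62. AN3226 had 1002 CPM at 48 h, against 51.4 at 0 h.

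For AN3308 the closest was AN1160, at 0.078 log2 units, with a Pearson correlation of 0.997 over the 7 libraries, given as a description because all genes share these libraries. AN1160 had 3194 CPM at 18 h, against 1702 at 12 h, and its model of 477 nt is short. bgt2 and AN6933 followed, at 0.17 and 0.19. AN3309 was closest to AN4759, AN5011 and sfh5 (AN8233), at 0.092 to 0.10, and AN3729 to kgd1 (AN5571), erg24B (AN4094) and AN6950, at 0.13 to 0.16. Ranked by correlation in place of distance, the number of shared genes among the nearest 3 was 2 for AN3729, 0 for AN3309 and 1 for each other member. AN3307 and AN5885 lay 2.57 log2 units apart on this measure, the farthest of the 10 pairs of members, and AN3309 and AN3729 were the closest pair, at 0.42.

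**Figure D5:**
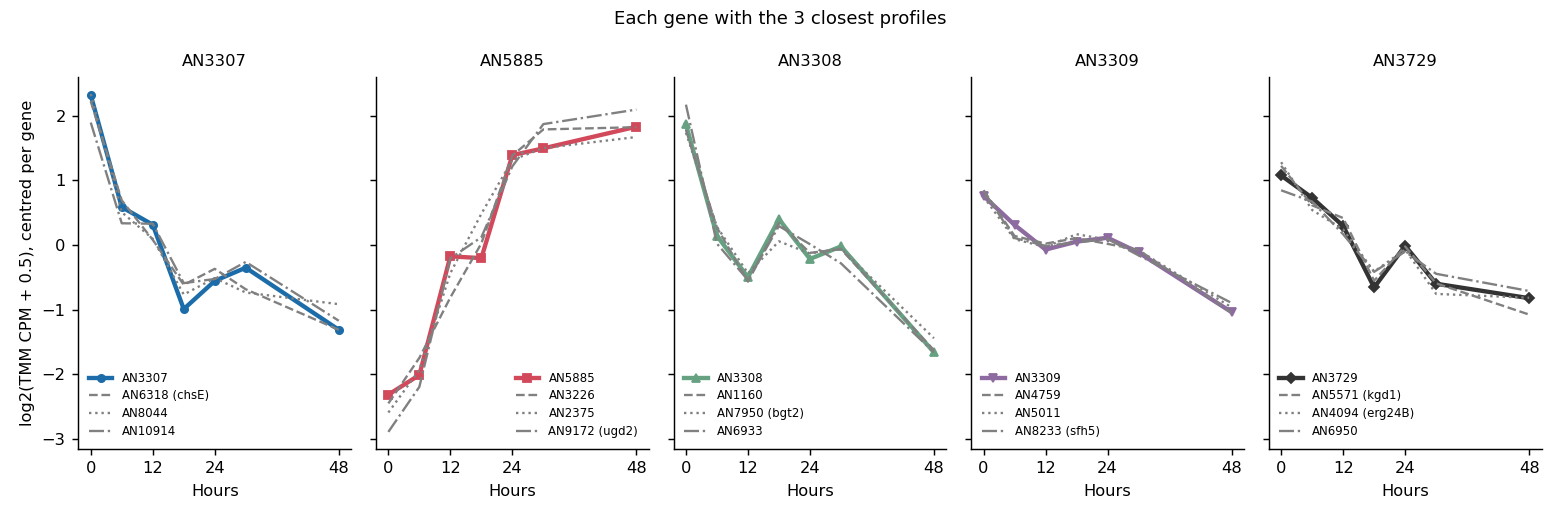
Centred log2(TMM CPM + 0.5) of each member (thick line) and of the 3 genes with the smallest RMS difference from it (grey lines) against hours. AN3307 and AN3729 dip at 18 h, AN3308 has a local peak there, and AN5885 climbs in steps to 24 h and more slowly after it.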

How the data were processed

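By the labels' protocols, filters carrying mycelium of 1 carboy culture were taken in duplicate at each time and an Illumina mRNA kit was used; per unit, each time has 1 column, and pooling of the duplicates is not stated. The authors deposited unnormalized whole-number counts per gene, which were analysed. Their deposited signal, reads per nucleotide, gave gene model lengths. The deposited RPKM equals that signal over the library's total count, to 0.1%, for 100% of values, and was not tested. The submitters' processing notes name CASAVA; no source used here names the aligner, build, annotation, strand or handling of multi-mapping reads. No gene of the table overlaps a member.

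Genes reaching 1 CPM in any library and 15 counts overall were tested with edgeR 4.0.16 (R 4.3.3; TMM, robust quasi-likelihood fits of a slope on hours, or of hours and hours squared). Changes are slopes times the hours spanned; the SE is the change over the square root of F. Alternatives were DESeq2 1.42.0, limma 3.58.1 voom, other factors, no filter, log2(hours + 6), omission of each library and, added after seeing the data, a length offset per library. The fits were tested on simulated data. Tables and plots used Python 3.11.15 with pandas 2.3.3, SciPy 1.17.1, and matplotlib 3.10.9. With 1 library per time, p-values test for the presence of the fitted slope, curve or bend. Their error term is the scatter about the fitted line or curve, as there were no replicates. Symbols are those of ASM1142v1 in NCBI RefSeq (10455 of 10639 identifiers found). Named genes are the members, 3 genes on each side, listed genes (called ones with the largest changes first, and others needed for a count) and the 3 closest profiles per member. Members and lists were chosen with earlier results of these data known. Promoter and protein sequences were not analysed here, and 1 listed gene is not reported here.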

Additional observations from a re-analysis of the deposited data

How the results depend on the processing

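With library totals 2053 genes rose and 311 fell over 0 to 48 h, and 2157 rose and 379 fell over 6 to 48 h; DESeq2 called 1285 falls over 6 to 48 h. On omission of each library, 639 to 1112 genes rose and 691 to 1205 fell over 0 to 48 h, and 408 to 1022 rose and 284 to 973 fell over 6 to 48 h. Over 0 to 48 h the falls not called were, as log2 changes, AN3308 with totals (-1.21), AN3309 with upper quartile factors (-1.19) and totals (-0.16), and AN3729 with upper quartile factors (-1.60), totals (-0.63) and the length offset (-1.51). Over 6 to 48 h AN3307 was not called with upper quartile factors (-1.54), totals (-1.07) or limma-voom (-1.63), whereas falls were called by DESeq2 for AN3308 (-1.52), AN3309 (-1.19) and AN3729 (-1.43) and by limma-voom for AN3309 (-1.17). Omissions over 0 to 48 h gave -4.17 to -1.92 for AN3307, 4.08 to 6.80 for AN5885, -3.04 to -1.70 for AN3308, -1.61 to -1.14 for AN3309 and -2.59 to -1.60 for AN3729; over 6 to 48 h they gave -1.82 to -1.38 for AN3307, 2.55 to 5.99 for AN5885 and -1.99 to -1.02 for AN3729. The curve by edgeR had an adjusted p of 0.0711, 0.166 and 0.0573 for AN3308 with upper quartile factors, totals and the length offset, 0.0686 and 0.170 for AN3309 with the first of these and totals, and 0.0707, 0.522 and 0.0847 for AN3729 with all 3; omissions gave by edgeR an adjusted p of 0.0128 to 0.0954, 0.0208 to 0.252 and 0.0354 to 0.116 for these genes. The log2 fold of 48 h over 0 h with totals and with upper quartile factors was -2.03 and -3.31 for AN3307, -1.92 and -3.21 for AN3308, -0.22 and -1.50 for AN3309 and -0.29 and -1.58 for AN3729, and 5.83 with totals for AN5885; 1 member step passed 4-fold with totals. Shares of AN5885 per kb stayed within their counting intervals. For the other named genes called in the original fits, 603 recomputed slopes kept direction and call and 113 kept direction and lost the call. The causes were not tested. No paired analysis was possible because each time has 1 library. Counting error limited AN5885 at 0 and 6 h and the scarcer neighbours.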
